A study of Mus musculus with 6 samples.

Results

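Potassium channel genes, whose mouse symbols begin with Kcn, were examined in the brain cortex of 3 control mice and 3 microglia-depleted mice. The table of gene levels held 95 Kcn rows among 23366 rows in all, and a Kcn gene was kept when its mean over the 6 mice was at least 0.5 FPKM (fragments scaled to transcript length and library depth, a level per length that can be set side by side between genes). The astrocytic channel gene Kcnj10 and the epithelial channel gene Kcnj13 were left out by name, 21 rows lay under the filter, and 72 genes remained. The filter used the mean over all mice and not the contrast between the groups. The 2 genes just inside it were Kcnj5 (mean 0.595 FPKM) and Kcnh6 (0.643 FPKM), and the 2 just outside were Kcne2 (0.438 FPKM) and Kcnk5 (0.437 FPKM).

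The labels name the groups only as control and microglia-depleted, and the genotypes below are those of the model in the study's methods. The depleted mice (A4, A5 and A6) carried CX3CR1-CreERT2+/- and iDTR+/-, so that tamoxifen switched on a diphtheria toxin receptor in CX3CR1-expressing cells, and they were then given tamoxifen and diphtheria toxin. The control mice (A1, A2 and A3) were littermates with CX3CR1-CreERT2+/- and without iDTR, so both groups carried the CreERT2 allele and both received tamoxifen. All mice were on the C57BL/6 background. Whether these controls received the toxin and how old the mice were are not given in the sources used here. The Cre is driven by the CX3CR1 promoter, which is active in microglia and also in other mononuclear phagocytes. Tissue of the frontal cortex was taken on day 10 after depletion. Microglia return by that time in this model, so the depleted group is a repopulated cortex and not one without microglia. Each mouse gave 1 RNA library, and values per mouse are listed below in the order A1 to A3 for controls and A4 to A6 for depleted mice.

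Potassium channels set the resting potential of neurons and glia, end each action potential and limit how fast a neuron can fire. Most are built from subunits that line a pore and end its outer mouth in a short, conserved selectivity filter. Voltage-gated subunits (Kcna, Kcnb, Kcnc, Kcnd, Kcnq, Kcnh) open on depolarization, silent subunits (Kcnf, Kcng, Kcns, Kcnv) form channels only together with Kcnb subunits, inward rectifiers (Kcnj) and K2P channels (Kcnk) carry current near rest, and Kcnma, Kcnn, Kcnt and Kcnu channels respond to calcium, sodium or pH. Auxiliary subunits (Kcnab, Kcne, Kcnip, Kcnmb) have no potassium pore of their own and change the gating or transport of the others. The cortex holds many of these at once because its neurons differ in firing pattern.

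The selectivity filter belongs to the pore-forming genes and not to the auxiliary ones. Its coding sequence is shown for members of several classes that the expression results below name. No expression result depends on these sequences. Each line runs 5′ to 3′ along the gene's own strand in build GRCm38, with the 5 filter codons in capitals and 2 codons on either side in lower case.
Kcna2 (chr3:107105218-107105244, plus strand): atgacaACTGTAGGCTATGGAgacatg
Kcnc1 (chr7:46427967-46427993, plus strand): atgacgACACTGGGCTATGGAgacatg
Kcnf1 (chr12:17175055-17175081, minus strand): atgaccACAGTGGGCTATGGTgacatc
Kcng4 (chr8:119625904-119625930, minus strand): atgacgACCGTGGGCTATGGGgacatg
Kcnh3 (chr15:99232923-99232949, plus strand): ctcaccAGTGTGGGCTTCGGCaacgtg
Kcnk1, second filter (chr8:126025323-126025349, plus strand): ctgagcACCATCGGCCTGGGGgactat
Kcnt1 (chr2:25894361-25894387, plus strand): ttctcaACTGTGGGCTTCGGTgatgtg

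The filter codons were found by 1 pattern (serine or threonine, then valine, isoleucine, leucine or threonine, then glycine, then tyrosine, phenylalanine or leucine, then glycine) in the longest coding transcript of each gene. The pattern was widened once, after the Kv3 and Kv4 genes had not matched, so its match to the pore-forming genes was not a test. In this form, all 61 pore-forming genes held it and 0 of the 10 auxiliary genes did. Among the 13675 coding genes tested for expression, members included, 238 (1.74%) held it. It occurred once in 52 members and 2 times in each of the 9 K2P members, whose subunits are known to carry a pair of pore domains. The filters of the 61 genes were written in 63 distinct 15-base versions, so the bases vary where the encoded motif is kept. The remaining member, Kcnq1ot1, is a long non-coding RNA and had no coding transcript.

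Cortical levels of these genes spanned more than 2 orders of magnitude. The median of the 72 means was 8.36 FPKM, close to the 9.27 FPKM of all genes tested, with 34 genes at 10 FPKM or above, 13 at 30 FPKM or above and 19 under 3 FPKM. The highest member was the auxiliary gene Kcnab2 (134.8 FPKM), a beta subunit of the Kv1 channels, and high pore-forming genes included the inward rectifier gene Kcnj4 (47.9 FPKM) and the leak channel gene Kcnk1 (42.7 FPKM). By class, auxiliary subunits summed to 417.2 ± 15.5 FPKM in control mice (SD, n = 3), the inward rectifiers to 157.9 ± 8.83 FPKM and the Kv3 genes to 116.2 ± 3.33 FPKM. Among the controls, the median coefficient of variation of a member was 9.11%, and over all genes tested it was 7.77%. Among the depleted mice these medians were 14.9% and 13.8%.

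**Figure D1:**
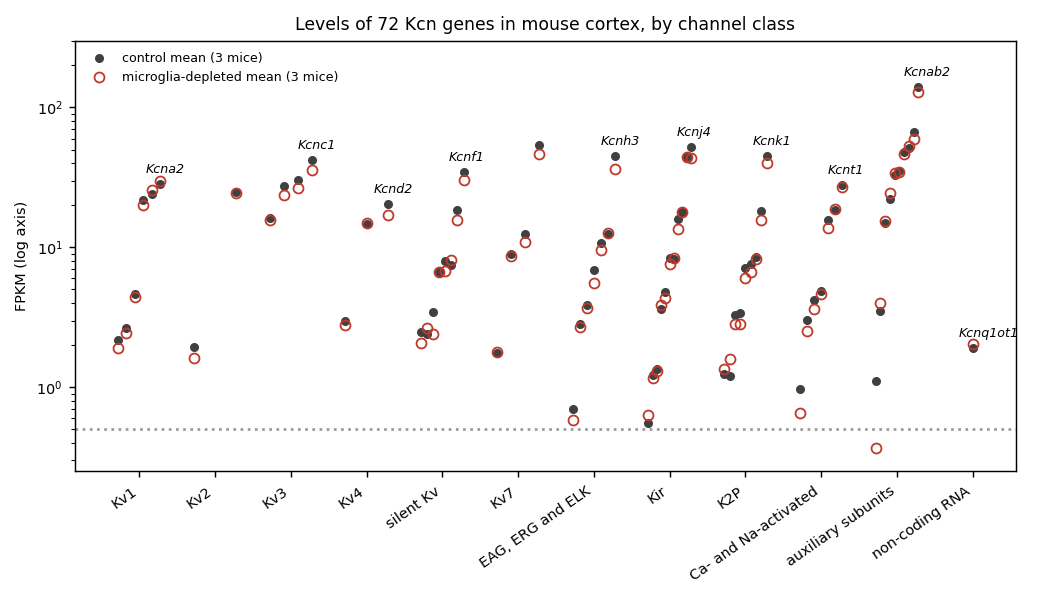
Level of each of the 72 Kcn genes by channel class, as the mean FPKM of the 3 control mice and of the 3 microglia-depleted mice on a log axis, with 1 pair of points per gene, the highest gene of most classes named and the filter of 0.5 FPKM as a dotted line. Paired points lie close together in every class, and the pair farthest apart in the auxiliary class is Kcnmb2, at 1.10 FPKM in controls and 0.367 FPKM in depleted mice.

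The question was whether these genes differed between the microglia-depleted and the control cortex. No member passed the test: with limma on log2(FPKM + 1) and Benjamini-Hochberg adjustment over the 14385 genes tested, 0 of 72 had an adjusted p under 0.1, against 4 of all genes tested (0.0278%), and the lowest adjusted p of a member was 0.370 (Kcnmb2). With its own test on raw counts, the study reported many more genes at that threshold. The 4 genes here are therefore not the extent of change that it reported, and limma on FPKM called fewer. At an unadjusted p under 0.05, 0 members were higher and 4 were lower in depleted mice, among them Kcnmb2 and Kcnh3. That is 0% of the members against 4.79% of all genes tested in the higher direction, and 5.56% against 5.74% in the lower direction, so the lower share was at the background (10.5% of all genes tested in either direction). Fold changes are on the log2(FPKM + 1) scale, which understates those of low genes, and are given as depleted minus control.

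Small differences were nonetheless mostly in 1 direction. On average over the mice, 51 members were lower and 21 higher in depleted mice (70.8% and 29.2%), while 52.0% of all genes tested were lower and 48.0% higher. The median log2 fold change was -0.080 for the members and -0.0085 for all genes tested. Of the 72 fold changes, 69 were under 0.3 in size, and they ran from -0.62 to 0.25. The 95% interval of the log2 fold change lay within 1 log2 unit of 0 for all 72 members and within 0.5 for 46. The median half-width was 0.307. That width comes from unadjusted intervals and is not the detection limit of the adjusted test with 3 mice a group. Kcnmb2, at -0.62, did not pass that test either. The 1 added before the log pulls the fold changes of low genes toward 0, so these intervals do not bound their change in FPKM. With 0.1 added instead, the log2 fold change was -1.40 for Kcnmb2, -0.55 for Kcng4 and 0.41 for Kcnk6. The limma adjusted p of Kcnmb2 was then 0.354. The 3 control values and the 3 depleted values did not overlap in 8 members, all of them lower in depleted mice (11.1%, against 9.38% of all genes tested), and in 0 members that were higher (against 8.21%), where 17.6% of all genes tested did not overlap in either direction. In these bulk samples, fewer cells of a type and less RNA per cell cannot be told apart.

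**Figure D2:**
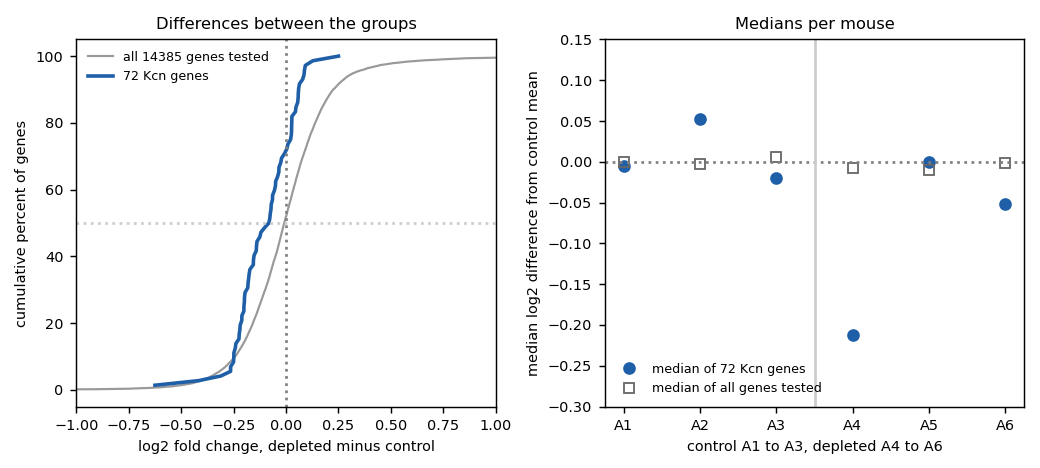
Distribution of log2 fold changes (depleted minus control, on log2(FPKM + 1)) of the 72 Kcn genes beside that of all 14385 genes tested. The members centre at a median of -0.080 and the whole set at -0.0085.

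Mouse A4 lay farthest from the controls. Relative to the control mean, the median member in A4 was at -0.21 on the log2 scale, while it was at -0.00015 in A5 and -0.052 in A6. In the same mice the median over all genes tested lay between -0.0097 and -0.00098. A4 had the lowest of the 6 values in 39 members (54.2%, against 28.2% of all genes tested). The control mouse A2 had the highest in 28 (38.9%, against 12.6%). Summed over the 72 genes, the controls reached 1219, 1313 and 1237 FPKM and the depleted mice 1063, 1239 and 1200 FPKM. Without A4 the median log2 fold change of the members was -0.036, 41 were lower on average, and 2 members were higher (Kcna2 and Kcnab3) and 4 lower at an unadjusted p under 0.05 in limma, which is 2.78% and 5.56% of the members against 5.99% and 7.19% of all genes tested. Without A5, the library with the lowest estimated depth, the median was -0.15, with 0 members higher (against 6.91%) and 11 lower (15.3%, against 7.38%). With A1, A2, A3 or A6 left out instead, 0 members were higher, against 2.48%, 2.61%, 3.07% and 5.92% of all genes tested. In the same order 5, 2, 2 and 6 members were lower (6.94%, 2.78%, 2.78% and 8.33%), against 2.98%, 4.0%, 3.09% and 7.14%. With 3 mice against 2, groups separate more often. The members that did not overlap then numbered 15 without A1, 15 without A2, 15 without A3, 18 without A4, 21 without A5 and 16 without A6, against 23.6%, 26.0%, 24.7%, 30.2%, 32.7% and 31.5% of all genes tested.

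**Figure D3:**
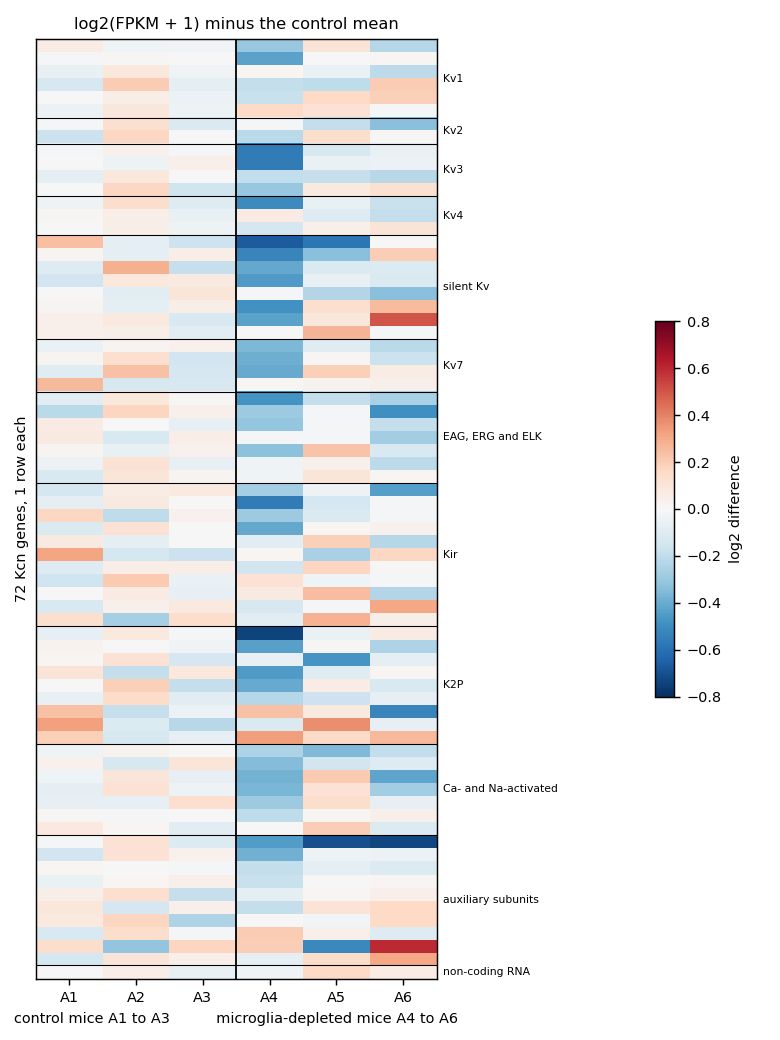
Log2 difference from the control mean for each of the 72 Kcn genes (unlabelled rows, grouped by class) in each of the 6 mice (columns). The column of A4 has the most genes below the control mean, 60 of 72, while A5 has 36 and A6 has 44.

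The Kv3 genes code for channels that open at strong depolarization and close fast, which lets interneurons and other cells fire at high rates. Kcnc1 stood at 41.5, 43.0 and 41.5 FPKM in the controls and at 28.2, 38.3 and 40.3 FPKM in the depleted mice, so A4 was far below the others and A5 and A6 were just under the controls. Its log2 fold change was -0.25, and -0.094 without A4. Kcnc4 showed the same order, at 30.5, 29.7 and 31.3 FPKM in controls and 20.4, 29.4 and 29.5 FPKM in depleted mice. Its log2 fold change was -0.22, and -0.049 without A4. For Kcnc2 the log2 fold change was -0.034 (0.10 without A4). The class sum was 116.2 ± 3.33 FPKM in controls and 101.6 ± 14.2 FPKM in depleted mice (SD, n = 3 each), and the depleted sum was 85.2 FPKM in A4 against 108.8 and 110.8 FPKM in A5 and A6.

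Kcnh3 codes for an ELK channel that passes current below the firing threshold in forebrain pyramidal cells. Its control values were 42.3, 47.9 and 45.3 FPKM, and its depleted values were 32.1, 39.3 and 37.6 FPKM. Every depleted mouse lay below every control, and A4 was the lowest. The means were 45.2 ± 2.80 and 36.3 ± 3.79 FPKM (SD, n = 3 each), and limma gave a log2 fold change of -0.31 ± 0.095 (SE) with an unadjusted p of 0.0109 and an adjusted p of 0.378. The exact two-sided permutation test of its means gave p = 0.1, the smallest that 3 against 3 can give. In its class, 6 of 7 members were lower on average, with a median log2 fold change of -0.10. At the other end, the EAG channel gene Kcnh1 had a log2 fold change of 0.026, and Kcnh6, an ERG gene near the filter, had -0.10.

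Kcnmb2 had the largest fold change of the 72 genes. It codes for a beta subunit of the BK channel (pore gene Kcnma1) that makes the current inactivate. Controls had 1.09, 1.27 and 0.95 FPKM, and depleted mice had 0.54, 0.29 and 0.27 FPKM. All 3 depleted mice were below all 3 controls, here with A4 the highest of the depleted mice. The log2 fold change was -0.62 ± 0.16 (SE), with a limma p of 0.00464 and an adjusted p of 0.370 that ranged from 0.207 to 0.892 over the other settings tried. It passed the filter through the controls, since its depleted mean of 0.367 FPKM was under 0.5. By the estimated depth, its values stood for about 47.3 to 75.9 fragments in a control and for about 21.5, 3.02 and 8.85 in A4, A5 and A6, so the lower levels rest on few fragments.

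The Kv1, Kv2 and Kv4 classes had median log2 fold changes of -0.073, -0.10 and -0.077. In the Kv1 class, which codes for low-threshold channels of axons, the sum was 84.0 ± 3.29 FPKM in controls and 84.3 ± 7.02 FPKM in depleted mice (SD, n = 3 each). Its highest member Kcna2 stood at 28.4, 29.6 and 27.6 FPKM in the controls and at 25.1, 32.0 and 32.8 FPKM in the depleted mice, with A4 below and A5 and A6 above every control. Its log2 fold change was 0.058 with all mice and 0.18 without A4. The extremes of the class were Kcna1 (log2 fold change 0.086) and Kcna3 (-0.14), the latter known from lymphocytes and activated microglia. In the Kv2 class of delayed rectifiers, the lowly expressed Kcnb2 had a log2 fold change of -0.18. In the Kv4 class, which carries the A-type current of dendrites, Kcnd3 was at 0.0037. Kcnd2 stood at 19.8, 22.6 and 18.8 FPKM in controls and 14.0, 19.5 and 17.9 FPKM in depleted mice, which overlap (log2 fold change -0.25, limma adjusted p = 0.537). Its log2 fold change was -0.12 without A4.

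Of the 8 silent subunits, 6 were lower on average (against 52.0% of all genes tested). Kcng4 had the most negative log2 fold change of the class (-0.42, limma adjusted p = 0.513) and stood at 4.26, 3.21 and 2.97 FPKM in controls and at 1.80, 1.98 and 3.44 FPKM in depleted mice, so A6 lay inside the control range. Kcnf1, the highest of the class, had means of 34.8 and 30.1 FPKM (log2 fold change -0.21, and -0.088 without A4). Kcns2 was at the upper end, with a log2 fold change of 0.088. The class sum was 83.6 ± 4.64 FPKM in controls and 74.4 ± 9.89 FPKM in depleted mice (SD, n = 3 each), where A4 stood at 63.0 FPKM. A5 (79.63 FPKM) and A6 (80.54 FPKM) were at the level of the lowest control (79.65 FPKM).

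**Figure D4:**
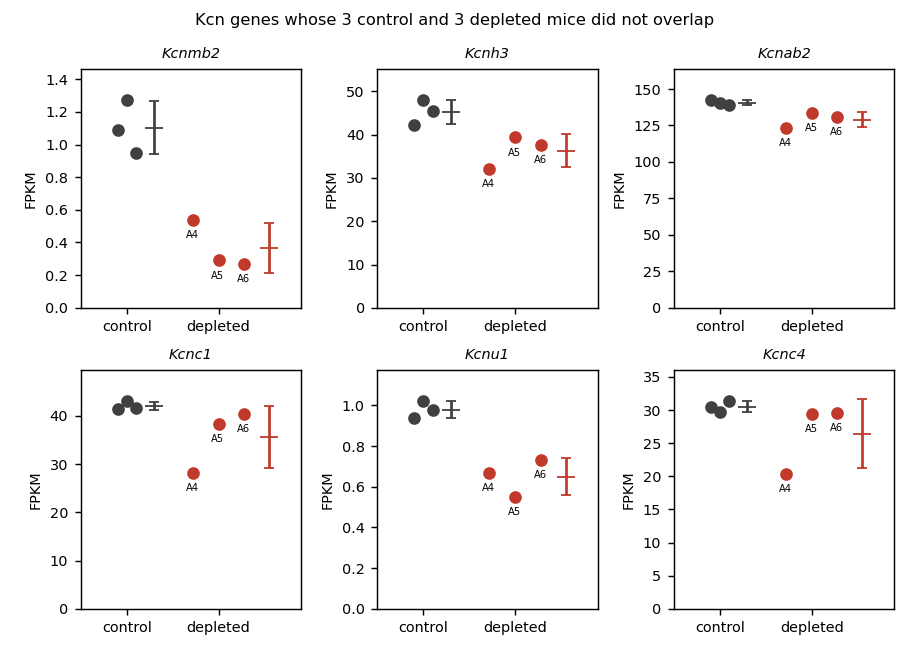
FPKM in each mouse for 6 of the 8 Kcn genes whose control and depleted values did not overlap, with 1 panel per gene, 1 point per mouse and, beside each group, its mean with an error bar of 1 SD (n = 3). All 6 genes were lower in the depleted mice, and in Kcnc1 and Kcnc4 the gap to A5 and A6 is small while A4 stands apart.

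Among channels that work near rest, the inward rectifiers were split, with 5 members higher and 6 lower on average and a median log2 fold change of -0.026. Kcnj4 stood at 47.1, 54.2 and 54.9 FPKM in controls and 42.8, 50.5 and 38.1 FPKM in depleted mice, with A5 inside the control range (log2 fold change -0.25, limma adjusted p = 0.485). Its log2 fold change was -0.16 without A6. Kcnj5, a subunit of G-protein-gated channels and the lowest member, was at the other end with a log2 fold change of 0.079. Of the 9 K2P genes, which code for leak channels, 7 were lower on average (against 52.0% of all genes tested). The highest, Kcnk1, had means of 45.0 and 40.3 FPKM (log2 fold change -0.15, and -0.078 without A2). Kcnk2, a mechanosensitive leak channel, stood at 17.4, 19.3 and 18.1 FPKM in controls and 10.5, 17.5 and 19.2 FPKM in depleted mice, so its log2 fold change of -0.24 rested on A4 and was 0.0077 without it. Kcnk6 had the most positive log2 fold change of all 72 genes, 0.25 (limma adjusted p = 0.592), at 1.50, 1.00 and 1.09 FPKM in controls and 1.76, 1.43 and 1.62 FPKM in depleted mice, where A5 lay below the highest control.

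Microglia are known to set their own resting potential through the K2P channel encoded by Kcnk13, which is named here after its values were seen. Its level was 3.51, 3.41 and 3.34 FPKM in controls and 2.27, 3.44 and 2.73 FPKM in depleted mice. A5 lay inside the narrow control range and the other two below it (log2 fold change -0.22, limma adjusted p = 0.608). Its log2 fold change was -0.12 without A4 and -0.34 without A5. Kcnn4, a calcium-activated channel known from activated microglia, was under the filter and not tested, at 0.17, 0.05 and 0.03 FPKM in controls and 0.36, 0.42 and 0.09 FPKM in depleted mice.

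In the class activated by calcium, sodium or pH, 6 of 7 genes were lower on average. Its highest member, the sodium-activated channel gene Kcnt1, had means of 27.9 and 27.0 FPKM (log2 fold change -0.049). Kcnn2, a small-conductance channel of the afterhyperpolarization, was the 1 member higher on average, at 0.028. Kcnu1, whose channel is known from sperm, was read at a low level, 0.94, 1.02 and 0.98 FPKM in controls against 0.67, 0.55 and 0.73 FPKM in depleted mice. Its groups did not overlap (log2 fold change -0.26, limma adjusted p = 0.557).

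The auxiliary subunits as a class lay near 0, with 5 higher and 5 lower on average and a median log2 fold change of 0.0091. Kcnab2 stood at 142.2, 140.7 and 139.2 FPKM in controls and 123.1, 133.3 and 130.6 FPKM in depleted mice. The groups did not overlap, and the difference was small (log2 fold change -0.12, limma adjusted p = 0.529). Its relative Kcnab3 was at the upper end of the class with a log2 fold change of 0.13. The non-coding Kcnq1ot1 had a log2 fold change of 0.060. It runs antisense to Kcnq1 and strand was not stated for these libraries, so a part of its reads could come from Kcnq1, whose own row had a mean of 0.09 FPKM.

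The genes left out by name were read beside the members. Kcnj10, the main inward rectifier of astrocytes, had means of 58.7 ± 6.78 FPKM in controls and 56.3 ± 4.40 FPKM in depleted mice (SD, n = 3 each; log2 fold change -0.055, limma adjusted p = 0.878). Kcnj13, known from the choroid plexus and other epithelia, had 2.07 ± 0.391 and 1.32 ± 0.720 FPKM (log2 fold change -0.44, limma adjusted p = 0.529).

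Genes that work with potassium channels but carry other names were read from lists chosen with earlier results of these data known. Of 28 partners (scaffolds, other auxiliary proteins and the HCN pacemaker channels), 27 were tested and Lrrc52 was under the filter. None passed the adjusted test in limma, 1 was lower and 0 were higher at an unadjusted p under 0.05 (against 5.74% and 4.79% of all genes tested), and the median log2 fold change was -0.073. The lower gene was Dlg4, which codes for the postsynaptic scaffold that clusters Kv1 and Kir channels, with means of 220.5 and 185.4 FPKM (log2 fold change -0.26, limma adjusted p = 0.464). Without A4 its log2 fold change was -0.13, and its unadjusted p was over 0.05 with any single mouse other than A6 left out and after the GC-content correction. The extremes were the pacemaker gene Hcn2 (-0.35, and -0.14 without A4) and Lrrc26, a gamma subunit of the BK channel (0.29, and 0.075 without A6). Of 12 pump and cotransporter genes, 0 passed the adjusted test, 2 were lower at an unadjusted p under 0.05 (against 5.74% of all genes tested) and 11 were lower on average (against 52.0%), with a median of -0.14. One of them was Slc12a9, of the cation-chloride cotransporter family (-0.34, limma adjusted p = 0.417), and the 1 that was higher on average was the pump subunit gene Atp1b3 (0.058).

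Markers of cell types and neighbouring regions were read beside the members. None passed the adjusted test in limma, and the part of any shift in them in the values above was not tested. At an unadjusted p under 0.05 in limma, 3 of 6 layer IV and 5 of 7 choroid plexus markers were lower. So were 3 of 7 for oligodendrocytes, 2 of 5 for their precursors, 2 of 9 for microglia and 1 each for astrocytes and thalamus. The share of all genes tested was 5.74%. Higher at that p were 2 for microglia and 1 each for astrocytes and vascular cells, against 4.79%. On average, 52.0% of all genes tested were lower. Neuronal markers held 4 of 9 higher on average, from Nefl (log2 fold change -0.28) to Gad1 (0.056), with summed levels of 2494 to 2784 FPKM in controls and 2348 to 2696 FPKM in depleted mice. For parvalbumin interneurons, 3 of 6 were higher (Erbb4 -0.37 to Pvalb 0.060, sums 265.6 to 272.8 and 252.5 to 291.4 FPKM). Layer IV markers were lower in 5 of 6 (Rspo1 -0.59 to Cux1 0.15, sums 60.5 to 65.0 and 53.0 to 62.0 FPKM). Cux1, at a mean of 26.0 FPKM, weighed most in these sums. Oligodendrocyte markers were lower in 7 of 7 (Mag -0.47 to Cldn11 -0.071, sums 2962 to 3224 and 2591 to 2681 FPKM), as were the 5 of their precursors (Olig1 -0.44 to Gpr17 -0.080, sums 81.8 to 93.0 and 59.1 to 74.9 FPKM). Choroid plexus markers were lower in 7 of 7 (Ttr -1.91 to Kl -0.23, sums 168.8 to 324.6 and 46.3 to 70.5 FPKM). Of the other lists, the sums overlapped between the groups, with microglia at 97.1 to 118.4 and 99.2 to 130.7 FPKM (Fcrls -0.90 to Aif1 0.74, 5 of 9 higher), astrocytes at 1083 to 1209 and 1081 to 1210 FPKM (Aldh1l1 -0.21 to Gfap 1.00, 2 of 8 higher) and vascular cells at 23.9 to 24.9 and 23.4 to 27.1 FPKM (Rgs5 -0.40 to Pecam1 0.34, 4 of 7 higher). Gfap stood at 88.3, 64.5 and 84.2 FPKM in controls and at 300.3, 108.5 and 120.1 FPKM in depleted mice. Its log2 fold change was 0.54 without A4, and the astrocyte sums join genes that moved in both directions. Markers of neighbouring regions gave 398.8 to 450.2 and 371.2 to 464.8 FPKM for the striatum (Adora2a -0.39 to Ppp1r1b 0.13, 2 of 9 higher), 42.9 to 55.2 and 36.9 to 45.3 FPKM for the thalamus (Prkcd -0.32 to Lhx9 0.064, 2 of 7 higher) and 108.3 to 119.6 and 107.3 to 145.6 FPKM for the hippocampus (Fibcd1 -0.31 to Wfs1 0.31, 2 of 6 higher). In A4 the median marker against the control mean, on the log2 scale, was at -0.53 for the striatum, -0.51 for layer IV, -0.49 for the choroid plexus, -0.41 for oligodendrocyte precursors and -0.40 for the thalamus. It was at -0.37 for oligodendrocytes, -0.29 for parvalbumin interneurons, -0.18 for astrocytes, -0.044 for neurons, -0.029 for the hippocampus, -0.0052 for vascular cells and 0.13 for microglia. In A5 and A6 the medians were 0.14 and -0.0043 for the striatum and -0.073 and -0.19 for layer IV. For the choroid plexus they were -0.52 and -0.51, for oligodendrocytes -0.28 and -0.098, and for their precursors -0.19 and -0.21. The thalamus had 0.059 and -0.050, parvalbumin interneurons 0.10 and 0.0048, and astrocytes -0.011 and -0.14. Neurons had 0.046 and -0.0098, the hippocampus -0.047 and -0.040, vascular cells 0.043 and 0.24, and microglia -0.17 and -0.015. None of these markers was at 0 in all 6 mice.

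Depth and the levels of sex-linked genes differed between libraries, and GC content differed between genes. The spacing of low values put the depth at about 14.9 M to 20.5 M fragments in the controls and at 13.6 M, 3.57 M and 11.2 M in the depleted mice. The median GC content of the members' transcripts was 53.1%, and that of all genes tested was 50.3%. In the tercile of genes richest in GC, which held 34 members, the median log2 fold change was -0.073 over all genes and -0.16 over the members, and in the poorest tercile, with 17 members, it was 0.032 and -0.065. After a correction for GC content the median of the members was -0.060, with 0 members higher (against 4.38% of all genes tested) and 1 lower (1.39%, against 4.28%) at an unadjusted p under 0.05, namely Kcnmb2 (adjusted p = 0.442 in limma). Xist stood at 4.74 FPKM in A3 and at 30.9 to 46.7 FPKM in the other mice, and 4 Y-linked genes summed to 5.56 FPKM in A4 and to at most 0.16 FPKM elsewhere. The part of depth and of these genes' levels in the results was not tested.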

How the data were processed

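Poly(A) RNA of 6 cortices was sequenced as paired ends. The authors deposited 1 table of FPKM values, TMM-normalized and rounded to 2 decimals. The submitters' processing notes name TopHat, RSEM, DESeq and build mm9, whose versions and annotation are not given in the sources used here. DESeq on raw counts, the study's test, was not used because the table holds no counts. The values were tested as log2(FPKM + 1) with limma 3.58.1 (R 4.3.3, eBayes with trend, 3 mice against 3, no covariate), two-sided, over the 14385 genes whose mean reached 0.5 FPKM. Benjamini-Hochberg adjustment covered all of them, at the study's threshold of 0.1. The fit was checked on simulated data. Each mouse is a separate animal with 1 library, and the labels give no litter or batch. The study's methods give a common read coverage for all samples, but no total per mouse. Depth was therefore estimated from the spacing of low FPKM values. It stands for the fragments behind those values and not for the reads sequenced. The number of mice limits the precision.

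GC content and filter codons were read from GENCODE M21 transcripts (GRCm38), with symbols matching for 23025 of 23366 rows (1293 through older symbols). The files use mm9, so no coordinate of theirs was used. The filter pattern was widened once, after the Kv3 and Kv4 genes had not matched. Members, classes and lists were chosen with earlier results of these data known. The text names members with an unadjusted p under 0.05, the highest member and both extremes of each class, non-overlapping members past 0.2 in log2 fold change, the 2 genes on each side of the filter, Kcnj10 and Kcnj13, genes of the partner and pump lists with an unadjusted p under 0.05, and the extremes of all lists, except some genes that are not reported here. Kcnk13, Kcnn4 and the genes listed at single settings outside this rule were chosen after their values were seen. Alternatives were another pseudocount (0.1), no filter, a minimum mean of 1 FPKM, array weights, eBayes made robust or run without trend, a GC-content correction, TPM rescaling, scaling by median ratios, quantile normalization and leaving out each mouse.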

Additional observations from a re-analysis of the deposited data

How the results depend on the processing

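No paired analysis was possible because the replicate numbers, 1 to 3 in controls and 4 to 6 in depleted mice, are not shared between the groups. The count of members with an adjusted p under 0.1 stayed at 0 under every alternative. The count lower at an unadjusted p under 0.05 in limma was 4. It was 5 of 90 rows with no filter and 3 of 68 with a minimum mean of 1 FPKM. It was 3 for eBayes without trend, 2 with array weights and 1 after the GC-content correction. Leaving out each mouse gave 2 to 11. The count higher was 0, and 0 to 2 when each mouse was left out. The count of non-overlapping members was 8. It was 9 with no filter, 6 with a minimum mean of 1 FPKM, 9 after TPM rescaling and 5 after the GC-content correction. It was 15 to 21 when each mouse was left out, where 3 against 2 separates more often (23.6% to 32.7% of all genes tested). The median log2 fold change of the members was -0.15 to -0.036 over the left-out mice and negative under every other alternative. The cause of these shifts was not tested. Genes near 0 turned sign: Kcnt1 and Kcnd3 at 0.0063 and -0.0089 after the GC-content correction, and Kcnc2 at 0.040 with array weights. With each mouse left out in turn, the log2 fold change ranged over -0.0099 to 0.18 for Kcna2, -0.12 to 0.10 for Kcnc2, -0.046 to 0.072 for Kcnd3, -0.035 to 0.076 for Kcnh1, -0.15 to 0.011 for Kcnj10, -0.054 to 0.16 for Kcnj5, -0.40 to 0.0077 for Kcnk2, -0.057 to 0.10 for Kcnn2, -0.0045 to 0.14 for Kcns2, -0.10 to 0.029 for Kcnt1. By the estimated depth, low genes such as Kcnmb2, and all values of A5, rest on the fewest fragments. In addition, 3 mice a group limit what could be detected.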

Other observations

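The 21 Kcn rows under the filter were not tested in the comparison above, and those not at 0 in all mice enter only the alternative without a filter. Kcne1, Kcnmb3 and Kcnk16, an auxiliary subunit known from heart, a BK beta subunit and a leak channel known from pancreas, were listed at 0 in all 6 mice. Kcnj1 and Kcna7 were listed at 0 in 5 mice and at 0.09 and 0.06 FPKM in A4. Kcnk15 was at 0.54 FPKM in A5, the library with the lowest estimated depth, and at most 0.05 FPKM in the other mice, and the value in A5 stood for about 3.70 fragments. Kcnk5 was at 1.08 FPKM in A5 and at 0.19 to 0.42 FPKM elsewhere, and Kcnh8, an ELK gene of the same class as Kcnh3, had control values of 0.35, 0.45 and 0.61 FPKM and depleted values of 0.13, 0.52 and 0.08 FPKM. These genes were chosen after their values were seen.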
